A study of Danio rerio with 14 samples.

Results

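The comparison described here set the older adult zebrafish hearts of the series, taken at 18 to 21 months, against those taken at 5 months. Members were all 14 libraries of the series (14 of 14), divided by the age in each sample's title. The older group held 7 libraries: 2 from TMEM43-P111L fish (20 and 19 months), 1 from TMEM43-S358L fish (19 months), 3 from TMEM43-WT fish (18, 20 and 19 months) and 1 from non-transgenic (NTG) fish (21 months). The younger group held the other 7, all of them at 5 months: 1 TMEM43-P111L, 3 TMEM43-S358L, 1 TMEM43-WT and 2 NTG. The transgenic lines expressed human TMEM43, a protein of the inner nuclear membrane and the endoplasmic reticulum, fused to eGFP, either as the normal sequence or with the variant that names the line. The transgene was driven by the myl7 promoter, which is active in cardiomyocytes, and was inserted by Tol2 transposition. All fish were of the strain that the labels call TL1, received no treatment and were held at 28 °C under 14 h light and 10 h dark. By the study's methods each library was made from a pool of up to 7 ventricles, while the labels name the tissue only as heart. The paper's text gives a single age, that of the younger group, for all fish of the RNA-seq experiment, so the ages used here rest on the labels alone. Sex, the number of ventricles in each pool and the time of day of dissection were not given in the sources used here.

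In adult zebrafish the ventricle consists of cardiomyocytes, endocardium and vessels, epicardium, fibroblasts and resident immune cells, with blood cells in the lumen. Its cardiomyocytes draw most of their energy from the oxidation of fatty acids in mitochondria, keep some ability to divide in adult life, and are held in a matrix of collagens and matricellular proteins laid down by fibroblasts and epicardial cells. Results are ordered by these functions, with genes that were higher at 18 to 21 months before those that were lower. Of the gene lists, 28 were chosen with earlier results of these data known and 5 after the values were seen. Counts of their members therefore only describe these libraries. In pooled tissue, fewer cells of a type and less RNA per cell cannot be told apart.

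Libraries held between 20977823 and 32418475 assigned reads at 18 to 21 months and between 20621770 and 25576803 at 5 months. The scaling factor for library composition ran from 0.935 to 1.14 in the older and from 0.836 to 1.12 in the younger group, with the lowest values, 0.836 and 0.850, in TMEM43-WT replicate 1 and TMEM43-S358L replicate 3, both younger. The ventricular markers vmhc, myl7, cmlc1, tnnt2a and actc1a were abundant in every library (vmhc, the least abundant of them, at 696 to 1230 CPM in the older and 698 to 1430 CPM in the younger libraries), and none was called for age. The fast skeletal muscle markers mylpfa, myhz1.1 and tnnt3a reached at most 0.956 CPM in any library, while the fourth marker of that tissue, the muscle creatine kinase gene ckma, was at 3150 to 4820 CPM in older and 3130 to 6740 CPM in younger libraries. The neuron marker elavl3 reached at most 0.120 CPM. None of the 37 tested marker genes of the cell types checked was called for age. Older and younger libraries differed in reads on mitochondrially encoded features, which here are ribosomal and transfer RNAs: these took 0.191% to 0.390% (median 0.245%) of reads at 18 to 21 months and 0.321% to 0.766% (median 0.441%) at 5 months (exact permutation of age within genotypes, two-sided p = 0.00694, the smallest that the 144 arrangements allow, adjusted p = 0.0347 over 5 library measures).

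A gene was called for age when its adjusted p was under 0.05 and its absolute log2 fold change was at least 0.05, in edgeR's quasi-likelihood test with genotype as a covariate and Benjamini-Hochberg adjustment. Fold changes are 18 to 21 months over 5 months, levels are CPM, each gene's reads scaled to the effective size of its library so that they can be compared between libraries, and adjusted p-values below come from this test. Of 15672 genes tested, 161 (1.03%) were called, of which 74 (0.472%) were higher and 87 (0.555%) lower at 18 to 21 months. The smallest adjusted p was 0.0115, so that all calls lay near the threshold, and the smallest absolute log2 fold change of a called gene was 0.51. At an unadjusted p under 0.05, 1072 genes (6.84%) were higher and 1067 (6.81%) lower. The range of the 7 older libraries lay wholly above or below that of the 7 younger ones for 116 genes (0.74% of those tested), above it for 57 (0.364%) and below it for 59 (0.376%). Of the 161 called genes 63 were among these 116. A gene with few reads could pass the filter on low counts through a single age group. For such a gene a lack of overlap can follow from the filter. Called genes that were higher had a median level of 10.8 CPM and a median log2 fold change of 1.31, and called genes that were lower a median level of 21.5 CPM and a median log2 fold change of −0.90. Among the called genes, 31 carried only provisional names (23 higher, 8 lower). They include 6 unnamed genes on 6 chromosomes, all called higher, whose reads were split with other features, so their values are uncertain. Split reads were not confined to these, since 44 of the 74 genes called higher and 39 of the 87 called lower had fractional values. Named genes with such values included nfil3-5, grn2, fus, sparc, hadhb, cth, tfr1a and aqp8a.1.

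**Figure D1:**
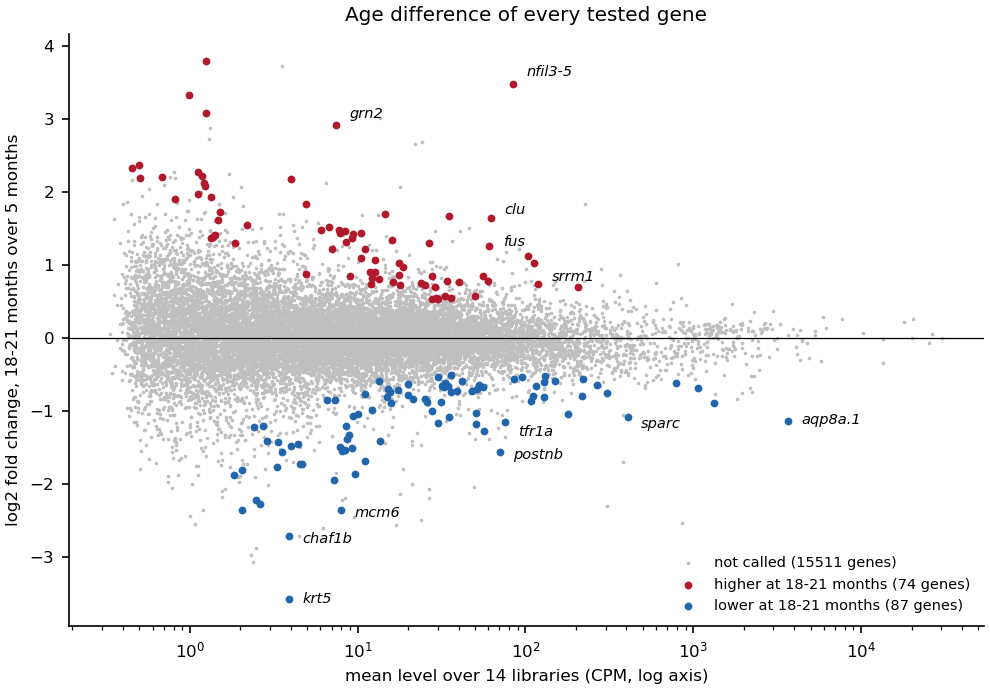
Log2 fold change (18-21 months over 5 months) of each tested gene against its mean level in CPM on a log axis. The 74 genes called higher lie mostly at low to middle levels, and the 87 called lower reach up to aqp8a.1 at 3672 CPM.

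The number of calls depended on single libraries. It was 1 without TMEM43-S358L replicate 4, the only older library of that line, and 4 without TMEM43-P111L replicate 2, the only younger library of that line. Without these libraries 0 and 3 of the 161 genes remained called. Leaving out another older library gave 72 calls (NTG replicate 4), 43 and 21 (TMEM43-P111L replicates 3 and 4) and 52, 49 and 63 (TMEM43-WT replicates 4, 5 and 6). Leaving out another younger library gave 317 and 94 calls (NTG replicates 2 and 3), 110, 56 and 101 (TMEM43-S358L replicates 1, 2 and 3) and 31 (TMEM43-WT replicate 1). All 161 genes kept their direction in every one of these 14 fits. They were called on these same libraries, so the kept direction only describes them and is no separate support. A fit with DESeq2 called 566 genes (255 higher, 311 lower), among them 157 of the 161. Leaving out the pair of younger libraries with the lowest scaling factors left 6 calls. This pair holds TMEM43-WT replicate 1, the only younger library of that line. With genotype as a covariate, leaving out a genotype's only library of one age takes that whole genotype out of the age estimate. The same holds for NTG replicate 4, TMEM43-S358L replicate 4 and TMEM43-P111L replicate 2. Within each genotype every older library also carried a higher replicate number than every younger one, so age and anything that these numbers may mark, which the sources used here do not state, cannot be told apart.

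**Figure D2:**
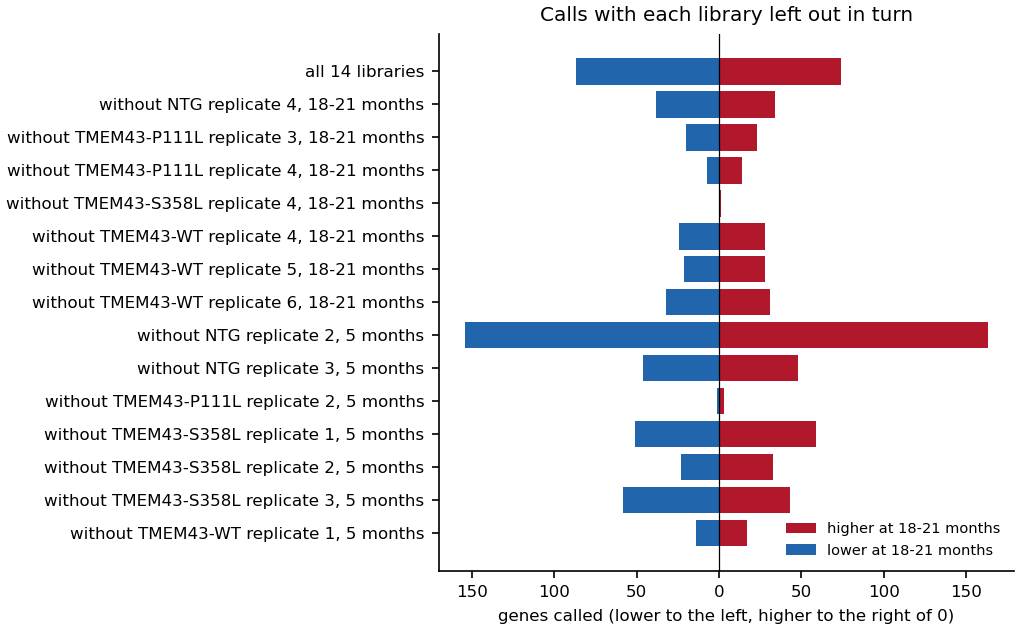
Number of genes called lower (left of 0) and higher (right of 0) at 18-21 months with all 14 libraries and with each library left out in turn. The count was 161 with all libraries, and ran from 1 without TMEM43-S358L replicate 4 to 317 without NTG replicate 2.

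The time of day of dissection was not given, so for clock genes sampling time cannot be told apart from age. Among genes of the circadian clock, 1 of 42 tested was called higher and 1 lower, against 0.472% and 0.555% of all tested genes. The higher was nfil3-5 (chromosome 6, 8171928 to 8180042 in GRCz11), which encodes a basic leucine zipper factor of the NFIL3 family, repressors that in mammals act on clock-controlled genes. It had the highest fold change of all named genes with at least 5 CPM. Levels of nfil3-5 ran from 58.5 to 183 CPM (median 149) at 18 to 21 months and from 2.0 to 72.1 CPM (median 17.4) at 5 months, with a log2 fold change of 3.48 ± 0.71 (SE; adjusted p = 0.0427). The groups overlapped through NTG replicate 4, at 58.5 CPM the lowest older library, and TMEM43-S358L replicate 2, at 72.1 CPM the highest younger library. The lower was nr1d2b (chromosome 19, 17400261 to 17407462), which encodes a nuclear receptor of the Rev-erb type that represses the clock activator gene arntl. It had 19.2 to 53.9 CPM (median 35.24) in older and 55.3 to 112 CPM (median 75.4) in younger libraries, with no overlap and a log2 fold change of −1.28 ± 0.23 (SE; adjusted p = 0.0264).

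Other clock genes, chosen after their values were seen, did not pass the test. The period gene per1b had a log2 fold change of −1.47 ± 0.40 (SE; adjusted p = 0.114) and cry5, of the cryptochrome and photolyase family, −1.73 ± 0.39 (SE; adjusted p = 0.0507). The clock activator arntl1a had 0.98 ± 0.24 (SE; adjusted p = 0.0703) and hlfb, a clock output factor of the PAR bZIP family, 1.51 ± 0.40 (SE; adjusted p = 0.0925). At an unadjusted p under 0.05, 11 of the 42 clock genes were higher and 7 lower, against 6.84% and 6.81% of all tested genes.

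Of 54 tested macrophage and neutrophil genes 2 were called higher and 0 lower, against 0.472% and 0.555% of all tested genes. They were grn2 (chromosome 19, 40196462 to 40199102), a granulin, a secreted protein of the progranulin family, and abcb9, a peptide transporter of the lysosome. Levels of grn2 were 4.76 to 26.6 CPM (median 11.8) in the 7 older libraries and 0.319 to 2.58 CPM (median 1.47) in the 7 younger ones, a log2 fold change of 2.91 ± 0.48 (SE; adjusted p = 0.0228). Every older library exceeded every younger one, and TMEM43-P111L replicate 4 was the highest. For abcb9, older libraries held 4.27 to 7.37 CPM and younger libraries 3.03 to 4.44 CPM, a log2 fold change of 0.87 ± 0.18 (SE; adjusted p = 0.0396).

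The general macrophage markers did not pass the test: mpeg1.1, a perforin of macrophages, had medians of 11.6 CPM in older and 7.37 CPM in younger libraries (log2 fold change 0.14, adjusted p = 0.844), marco, a scavenger receptor, 33.0 and 18.3 CPM (0.42, adjusted p = 0.591), and csf1ra, the receptor of a macrophage growth factor, 1.75 and 1.67 CPM (−0.61, adjusted p = 0.663). The summed level of the list ran from 1493 to 2320 CPM in older and from 1290 to 2974 CPM in younger libraries. Of 57 tested cytokines, chemokines and their receptors 1 was called higher and 0 lower, against 0.472% and 0.555% of all tested genes. This was the chemokine gene ccl25b, with 23.2 to 64.6 CPM (median 31.3) at 18 to 21 months and 8.46 to 25.7 CPM (median 15.5) at 5 months, a log2 fold change of 1.3 ± 0.27 (SE; adjusted p = 0.0404). The gene lsp1, for an actin-binding protein of white blood cells, had 5.61 to 13.8 CPM in older and 1.81 to 7.83 CPM in younger libraries, a log2 fold change of 1.22 ± 0.23 (SE; adjusted p = 0.0324).

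Clusterin, a secreted chaperone that also binds complement, was encoded by clu (chromosome 20, 39260608 to 39273884). It had 49.2 to 185 CPM (median 70.29) in older and 21.8 to 41.8 CPM (median 24.6) in younger libraries. All older libraries lay above all younger ones, and the log2 fold change was 1.64 ± 0.32 (SE; adjusted p = 0.0361). None of the 19 tested complement and acute phase genes was called, though 16 had a fold change above 0 and their median log2 fold change was 0.51, against 0.0023 over all tested genes. Of these, 6 were higher and 0 lower at an unadjusted p under 0.05. The members c6 and c4, chosen after their values were seen and encoding components of the terminal and early complement cascade, had log2 fold changes of 0.86 ± 0.21 (SE; adjusted p = 0.0620) and 1.22 ± 0.32 (SE; adjusted p = 0.0909). Of 66 tested genes of antigen presentation and the interferon response none was called, 49 had a fold change above 0, and the median was 0.19. Among them b2m, the light chain of class I molecules and likewise chosen after its values were seen, had 618 to 1011 CPM in older and 298 to 569 CPM in younger libraries, with no overlap, a log2 fold change of 0.75 ± 0.18 (SE) and an adjusted p of 0.0621.

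**Figure D3:**
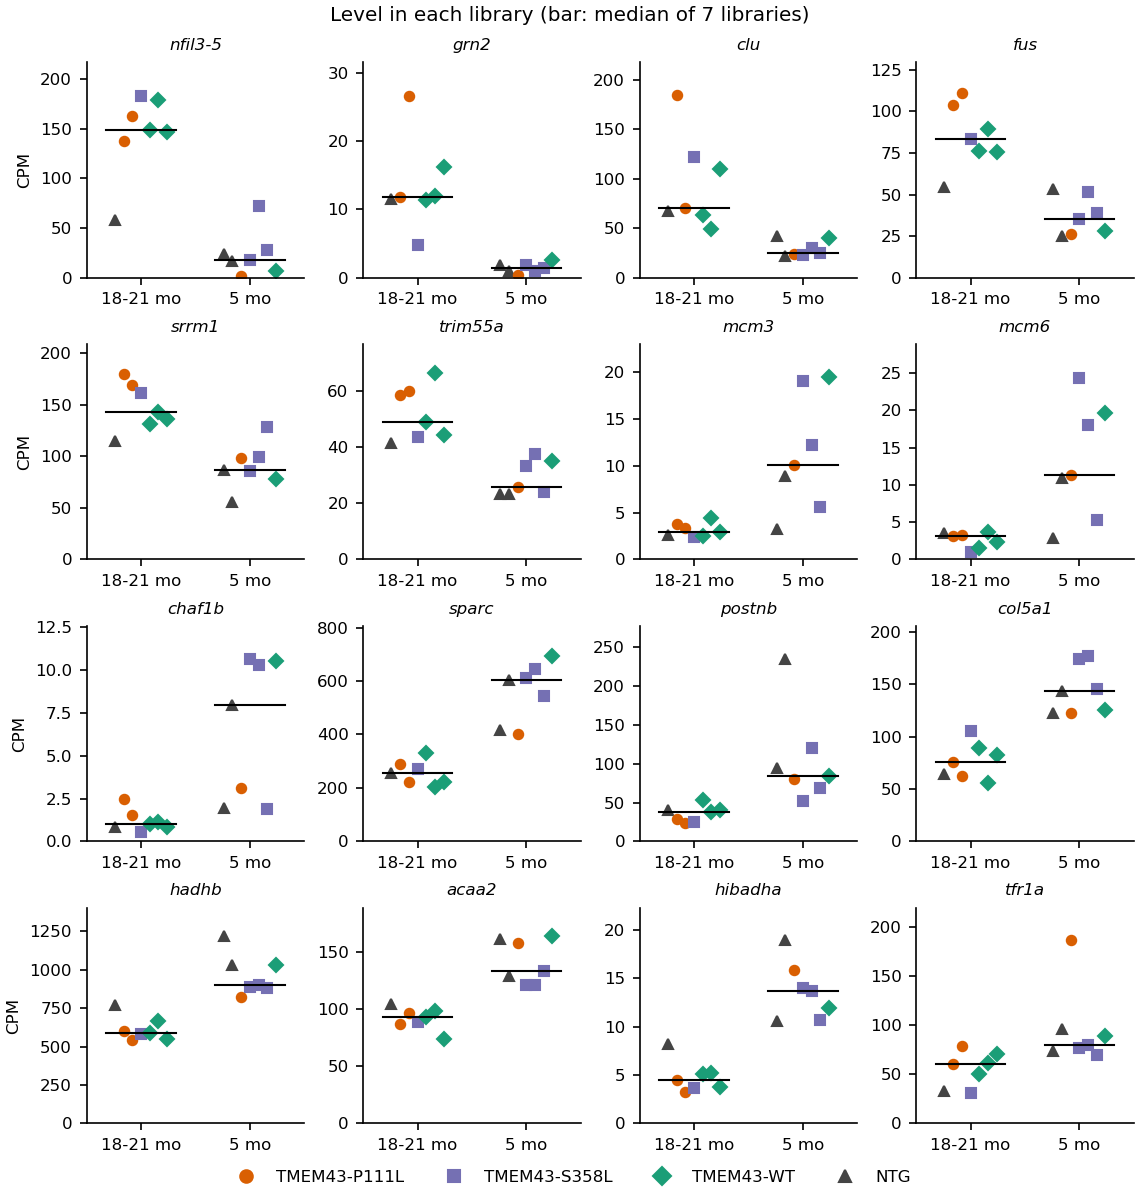
Level in CPM of 16 genes in each of the 14 libraries, with 18-21 months on the left and 5 months on the right of each panel, a symbol for each genotype and a bar at the median of 7 libraries. Older libraries lay above younger ones without overlap for grn2, clu, fus and trim55a, and below them without overlap for sparc, col5a1, hadhb, acaa2 and hibadha.

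Genes for proteins of nuclear speckles and pre-mRNA splicing were the largest set of related genes among those called higher. This list was drawn up after the values were seen, so its counts and its medians in all fits only describe it. Of its 101 tested members 10 were called higher and 0 lower, against 0.472% called higher and 0.555% called lower over all tested genes. A fold change above 0 was found for 89, and the median log2 fold change was 0.21. Across all fits this median stayed between 0.19 and 0.25, although 0 members remained called without TMEM43-S358L replicate 4, TMEM43-P111L replicate 2 or the pair of libraries with the lowest scaling factors. The RNA-binding protein gene fus (chromosome 3, 32698413 to 32711280) had 54.7 to 111.2 CPM (median 83.2) in older and 25.2 to 53.4 CPM (median 35.0) in younger libraries, a log2 fold change of 1.26 ± 0.24 (SE; adjusted p = 0.0307). The older NTG library, at 54.7 CPM, and the higher of the younger NTG libraries, at 53.4 CPM, were nearest to each other.

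The splicing factor gene rbm25a had 16.1 to 38.2 CPM in older and 8.92 to 21.2 CPM in younger libraries (log2 fold change 0.96 ± 0.16, SE; adjusted p = 0.0188). The gene srrm1, for a splicing coactivator rich in serine and arginine, had 115 to 180 CPM in older and 56.0 to 129 CPM in younger libraries (0.73 ± 0.14, SE; adjusted p = 0.0307). For pnisr, which encodes a speckle protein that binds pinin, levels were 64.1 to 82.1 CPM in older and 25.8 to 58.3 CPM in younger libraries, with no overlap (0.78 ± 0.15, SE; adjusted p = 0.0324). Smaller differences were those of pnn, for pinin itself (0.55 ± 0.11, SE; adjusted p = 0.0361), and sfswap, a regulator of splicing whose groups did not overlap (0.53 ± 0.11, SE; adjusted p = 0.0361). The other 4 called members, rnpc3, arglu1b, scaf11 and znf318, had log2 fold changes of 0.82, 0.78, 0.54 and 0.57.

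Further genes of the cell nucleus were higher at 18 to 21 months. The Polycomb gene bmi1b had 8.92 to 19.3 CPM (median 16.2) in older and 4.37 to 10.1 CPM (median 6.51) in younger libraries, a log2 fold change of 1.22 ± 0.20 (SE; adjusted p = 0.0201). For tp53bp1, whose product binds sites of DNA double-strand breaks, these were 85.0 to 169 CPM and 39.3 to 102 CPM (1.12 ± 0.25, SE; adjusted p = 0.0471). The groups of tp53bp1 overlapped, since the older library TMEM43-WT replicate 6 (85.0 CPM) lay below 3 younger libraries. The list of the p53 pathway and cell senescence, which did not include the called DNA damage gene ddb2 described below, had no call among 53 tested genes. Its median log2 fold change was −0.06. Its member cdkn2a/b, a cell cycle inhibitor locus used as a marker of senescence and named after its values were seen, was at 0.235 to 0.923 CPM (median 0.653) in older and 0 to 1.14 CPM (median 0.112) in younger libraries and did not pass (log2 fold change 2.17 ± 0.72, SE; adjusted p = 0.188).

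A pair of called genes linked to ribosome production was chosen after their values were seen. These were gtpbp4, for a nucleolar GTPase of ribosome assembly, and polr1c, for a subunit of RNA polymerases I and III. No list of ribosome assembly or RNA polymerase genes was counted, so the pair does not stand for the other genes of these groups. Older libraries held 236 to 277 CPM of gtpbp4 and younger ones 127 to 192 CPM, with no overlap (log2 fold change 0.70 ± 0.13, SE; adjusted p = 0.0307). For polr1c these were 13 to 22.3 CPM and 6.85 to 12.9 CPM, again with no overlap (0.80 ± 0.17, SE; adjusted p = 0.0404). The 85 genes of cytosolic ribosomal proteins themselves held no call. Their median log2 fold change was 0.10 with all libraries, −0.04 without TMEM43-P111L replicate 2, −0.05 without NTG replicate 4 and 0.40 without the pair of libraries with the lowest scaling factors, so that no direction can be given.

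The remaining highest called genes belonged to no list. The gene rlbp1b, for a binding protein of retinaldehyde, had 8.63 to 19.0 CPM in older and 1.70 to 18.3 CPM in younger libraries (log2 fold change 1.43 ± 0.30, SE; adjusted p = 0.0404), with the 3 younger TMEM43-S358L libraries (18.3, 10.2 and 9.76 CPM) inside the older range. For gpm6aa, a membrane glycoprotein of the proteolipid family, these were 16.8 to 27.6 CPM and 3.59 to 15.9 CPM, with no overlap (1.34 ± 0.26, SE; adjusted p = 0.0324). Both ccdc57, for a coiled-coil protein, and pdcd2l were also higher (1.37 ± 0.24, SE, adjusted p = 0.0252, and 1.1 ± 0.19, SE, adjusted p = 0.0236), and the groups of pdcd2l did not overlap. A pair of secreted antagonists was chosen after their values were seen. Levels of sfrp1b, a Wnt antagonist, were 3.57 to 10.9 CPM in older and 0.553 to 3.50 CPM in younger libraries. Its groups did not overlap (log2 fold change 2.18 ± 0.45, SE; adjusted p = 0.0394). Levels of grem1a, a BMP antagonist, were 0.462 to 1.36 CPM and 0.0921 to 0.298 CPM (2.18 ± 0.40, SE; adjusted p = 0.0264). Only the older libraries of grem1a had enough reads for the filter on low counts. Its lack of overlap was therefore set by the filter and is no separate support.

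A few genes of the extracellular matrix were among those called lower at 18 to 21 months. Of 52 tested glycoproteins and proteoglycans 4 were called lower and 0 higher, and of 27 collagens 1 was called lower and 0 higher, against 0.555% and 0.472% of all tested genes. At an unadjusted p under 0.05, 11 of the 52 were lower and 3 higher. At the same threshold 11 of the 27 collagens were lower and 2 higher, against 6.81% and 6.84% of all tested genes. The medians of both lists lay near 0, at −0.05 and −0.11, and that of the glycoproteins and proteoglycans was 0.02 without TMEM43-S358L replicate 4. Without that library 0 genes of the 2 lists were called, and without TMEM43-P111L replicate 2 there was 1. The gene sparc (chromosome 14, 25938899 to 25956810), for osteonectin, a matricellular protein that binds collagen, had 202 to 331 CPM (median 256) in older and 401 to 693 CPM (median 605) in younger libraries. No older library reached the lowest younger one, and the log2 fold change was −1.09 ± 0.17 (SE; adjusted p = 0.0152). Periostin, another matricellular protein made by cardiac fibroblasts, is encoded by postnb (chromosome 15, 32710497 to 32740635), which had 23.2 to 53.9 CPM (median 37.7) in older and 51.8 to 235 CPM (median 84.4) in younger libraries (−1.57 ± 0.27, SE; adjusted p = 0.0244). Its groups met only between TMEM43-WT replicate 4 (53.9 CPM, older) and TMEM43-S358L replicate 1 (51.8 CPM, younger).

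The small proteoglycan gene ogn, for osteoglycin, had 3.28 to 8.63 CPM in older and 9.90 to 31.1 CPM in younger libraries, with no overlap (log2 fold change −1.69 ± 0.31, SE; adjusted p = 0.0264). The elastic fibre gene fbln2, for fibulin 2, had 12.2 to 30.5 CPM and 26.4 to 51.8 CPM (−1.0 ± 0.19, SE; adjusted p = 0.0324). A hemicentin gene, hmcn2, for a large protein of basement membranes, had 2.24 to 5.99 CPM and 5.44 to 22.8 CPM (−1.56 ± 0.32, SE; adjusted p = 0.0373). The called collagen was col5a1, which controls the assembly of collagen I fibrils, with 55.9 to 105 CPM (median 75.6) in older and 122 to 177 CPM (median 143) in younger libraries (−0.80 ± 0.14, SE; adjusted p = 0.0228). The fibril-forming collagens col1a1a and col1a2 and the microfibrillar col6a2, named after their values were seen, did not pass (−0.58 ± 0.16, SE, adjusted p = 0.112; −0.63 ± 0.18, SE, adjusted p = 0.112; −1.06 ± 0.24, SE, adjusted p = 0.0508). The sum over the 27 collagens ran from 1559 to 2425 CPM in older and from 2339 to 4042 CPM in younger libraries. The gene ntn1b, for the secreted guidance protein netrin, was also called lower (−1.42 ± 0.31, SE; adjusted p = 0.0455). The epicardial and fibroblast marker tcf21 had medians of 31.0 CPM in older and 31.5 CPM in younger libraries and tbx18 of 10.7 and 10.9 CPM, and neither was called.

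Of 71 tested genes of fatty acid uptake and oxidation 5 were called lower and 0 higher, against 0.555% and 0.472% of all tested genes. A fold change below 0 was found for 56, against 49.6% of all tested genes, and the median log2 fold change was −0.31. The 5 genes follow the path of a fatty acid through the mitochondrion. The carnitine palmitoyltransferase gene cpt2, which completes import, had 35.05 to 52.3 CPM (median 42.1) in older and 55.7 to 85.8 CPM (median 72.2) in younger libraries, a log2 fold change of −0.68 ± 0.12 (SE; adjusted p = 0.0264). Its groups did not overlap. The acyl-CoA dehydrogenase genes acadl and acads, for long and short chains, had 163 to 201 CPM in older and 224 to 295 CPM in younger libraries (−0.56 ± 0.11, SE; adjusted p = 0.0348) and 96.6 to 147 CPM in older and 153 to 218 CPM in younger libraries (−0.60 ± 0.13, SE; adjusted p = 0.0421).

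The beta subunit of the trifunctional protein, hadhb (chromosome 20, 47931983 to 47952747), was the most abundant of the 5, with 543 to 772 CPM (median 585) in older and 825 to 1217 CPM (median 901) in younger libraries (log2 fold change −0.62 ± 0.11, SE; adjusted p = 0.0264). The thiolase gene acaa2, for the last step of the cycle, had 73.8 to 104 CPM in older and 121 to 164 CPM in younger libraries (−0.66 ± 0.12, SE; adjusted p = 0.0264). In all 5 genes every older library lay below every younger one, as in 0.376% of all tested genes. The 5 were called on these same libraries, so this only describes them. Groups did not overlap, in either direction, in 63 of the 161 called genes. The sum over the 71 genes ran from 8586 to 11830 CPM in older and from 11270 to 17350 CPM in younger libraries. Of this list 25 members were lower and 1 higher at an unadjusted p under 0.05. Its median stayed between −0.37 and −0.23 in all alternative fits, but 0 members were called without TMEM43-S358L replicate 4 or TMEM43-P111L replicate 2. The gene ech1, for an auxiliary enzyme of unsaturated fatty acids and chosen after its values were seen, was called lower as well (−0.66 ± 0.13, SE; adjusted p = 0.0361).

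The breakdown of branched-chain amino acids, another mitochondrial fuel path, was described by a list drawn up after the values were seen. All of its 24 tested members had a fold change below 0, against 49.6% of all tested genes, 3 were called lower, against 0.555%, and the median log2 fold change was −0.39. The enzyme gene hibadha (chromosome 19, 19600268 to 19657539), of valine breakdown, had 3.21 to 8.21 CPM (median 4.44) in older and 10.6 to 19.0 CPM (median 13.7) in younger libraries, with no overlap and a log2 fold change of −1.51 ± 0.22 (SE; adjusted p = 0.0115). The transaminase gene bcat2, for the opening step, had 138 to 206 CPM in older and 204 to 349 CPM in younger libraries (−0.79 ± 0.17, SE; adjusted p = 0.0404). For auh, of leucine breakdown, these were 64.5 to 94.9 CPM and 99.4 to 141 CPM (−0.54 ± 0.11, SE; adjusted p = 0.0361). All 24 members stayed below 0 without TMEM43-S358L replicate 4, without TMEM43-P111L replicate 2 and without the pair of libraries with the lowest scaling factors, but none was called in these fits. The fits reuse libraries whose values were seen when the list was drawn up, so the kept sign only describes them. The proline pathway gene aldh4a1, chosen after its values were seen, had 4.21 to 7.77 CPM in older and 8.42 to 19.5 CPM in younger libraries (−1.07 ± 0.22, SE; adjusted p = 0.0396).

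In the citric acid cycle, a list also drawn up after the values were seen, 1 of 25 genes was called, lower, against 0.555% of all tested genes. A fold change below 0 was found for 21, against 49.6%. The called gene was idh3a, a catalytic subunit of isocitrate dehydrogenase, with 85.0 to 127 CPM in older and 134 to 170 CPM in younger libraries (log2 fold change −0.52 ± 0.11, SE; adjusted p = 0.0404). Nuclear genes of oxidative phosphorylation held no call among 87 tested, with 20 lower and 0 higher at an unadjusted p under 0.05. Of these 87 genes 83 had a fold change below 0 and the median was −0.23. Without the pair of libraries with the lowest scaling factors 48 were below 0 and the median was −0.02. That fit held no younger TMEM43-WT library, so this genotype did not enter its age estimate. Their summed level ran from 50470 to 74050 CPM in older and from 54570 to 88140 CPM in younger libraries.

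Other respiratory chain genes outside the list, named after their values were seen, were called lower. The cytochrome c oxidase assembly gene cox10, for a heme farnesyltransferase, had 19.9 to 33.8 CPM in older and 36.3 to 51.9 CPM in younger libraries (log2 fold change −0.74 ± 0.13, SE; adjusted p = 0.0228). For ndufa4, a subunit of cytochrome c oxidase, these were 713 to 1032 CPM and 940 to 1903 CPM (−0.68 ± 0.13, SE; adjusted p = 0.0324). The mitochondrially encoded ribosomal RNA mt-rnr2 had 546 to 1838 CPM (median 679) in older and 798 to 3806 CPM (median 1113) in younger libraries (−0.90 ± 0.18, SE; adjusted p = 0.0348). The libraries were selected for polyadenylated RNA, so mt-rnr2 measures what remained after selection. The part of the lower mitochondrial RNA share of older libraries in the other mitochondrial results was not tested. Of 69 tested glutathione and antioxidant enzyme genes none was called, 55 had a fold change below 0 and the median was −0.30.

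One-carbon and sulfur amino acid enzymes, a further list drawn up after the values were seen, had 3 of 34 members called lower and 0 higher, against 0.555% and 0.472% of all tested genes. The gene cth, for cystathionine gamma-lyase, which makes cysteine, had 8.63 to 15 CPM (median 12.9) in older and 14.1 to 27.09 CPM (median 18.0) in younger libraries (log2 fold change −0.90 ± 0.13, SE; adjusted p = 0.0115). Within the genotypes its differences were nearly equal, from −0.92 in TMEM43-P111L to −0.87 in NTG. The mitochondrial folate enzyme gene mthfd2 had 18.0 to 52.8 CPM in older and 41.2 to 102 CPM in younger libraries (−1.04 ± 0.17, SE; adjusted p = 0.0183), and ahcyl1, related to adenosylhomocysteinase, 6.09 to 7.72 CPM and 6.36 to 19.7 CPM (−1.05 ± 0.23, SE; adjusted p = 0.0422).

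**Figure D4:**
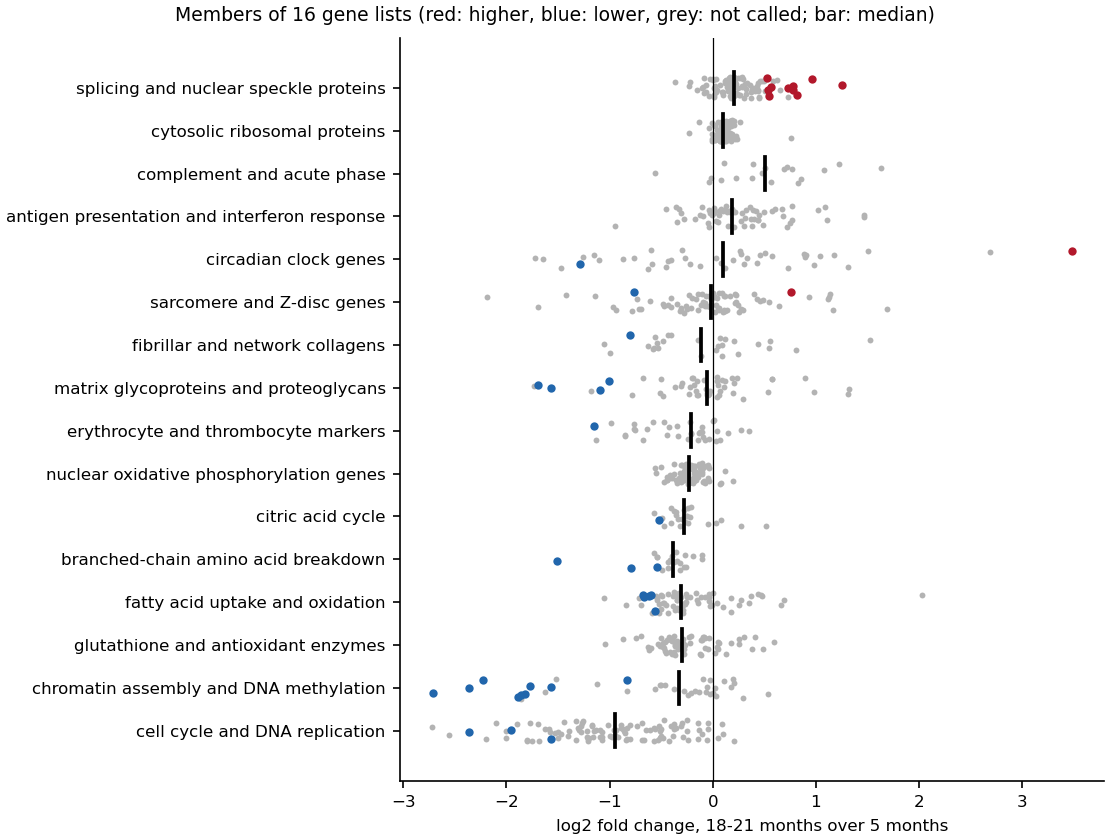
Log2 fold change (18-21 months over 5 months) of each tested member of 16 gene lists, with called genes in colour and a bar at each list's median. The medians ran from 0.51 for complement genes to −0.95 for cell cycle and DNA replication.

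Genes of the cell cycle and DNA replication had the lowest median of all lists, −0.95, and 103 of the 107 tested members had a fold change below 0, against 49.6% of all tested genes. Only 3 passed the test, all lower, against 0.555% of all tested genes called lower. At an unadjusted p under 0.05, 50 were lower and 0 higher, against 6.81% and 6.84% of all tested genes. DESeq2 called 20 of the 107 lower. The replicative helicase gene mcm3 (chromosome 20, 34770280 to 34783743) had 2.38 to 4.43 CPM (median 2.94) at 18 to 21 months and 3.22 to 19.5 CPM (median 10.1) at 5 months, a log2 fold change of −1.95 ± 0.34 (SE; adjusted p = 0.0228). Another helicase subunit, mcm6 (chromosome 6, 12968146 to 12985390), had 1.01 to 3.65 CPM (median 3.12) and 2.86 to 24.4 CPM (median 11.4), a log2 fold change of −2.36 ± 0.50 (SE; adjusted p = 0.0455). In both genes the older libraries lay within a narrow band, the younger libraries were spread widely, and the overlap came from NTG replicate 2, the lowest younger library.

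The other helicase subunits mcm2, mcm4 and mcm5, chosen after their values were seen, did not pass. Their log2 fold changes were −2.01 ± 0.56 for mcm2 (SE; adjusted p = 0.128), −1.8 ± 0.45 for mcm4 (SE; adjusted p = 0.0878) and −1.44 ± 0.40 for mcm5 (SE; adjusted p = 0.123). Without NTG replicate 2, mcm4 and mcm5 were called. The median of the list was −0.72 without TMEM43-S358L replicate 4, with 97 of 107 members below 0. It was −1.32 without TMEM43-P111L replicate 2, with 106 below 0, and −0.85 without the pair of libraries with the lowest scaling factors, with 100 below 0. No member was called in any of these 3 fits, nor without TMEM43-P111L replicate 4 or TMEM43-WT replicate 1. The summed level of the 107 genes ran from 1087 to 1495 CPM in older and from 1115 to 2308 CPM in younger libraries.

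Chromatin assembly and DNA methylation factors were gathered in a list drawn up after the values were seen. It also took in genes of the replication fork, such as wdhd1, and other nuclear factors, such as znf367. Its counts therefore only describe this mixed list. Of 38 tested members 9 were called lower and 0 higher, against 0.555% and 0.472% of all tested genes, and none was called without TMEM43-S358L replicate 4 or TMEM43-P111L replicate 2. The subunit gene chaf1b of chromatin assembly factor 1 had 0.546 to 2.49 CPM (median 1.03) in older and 1.89 to 10.6 CPM (median 7.97) in younger libraries (log2 fold change −2.72 ± 0.57, SE; adjusted p = 0.0422). For wdhd1, which links the helicase to DNA polymerase alpha, these were 0.312 to 1.34 CPM and 1.15 to 6.53 CPM (−2.37 ± 0.48, SE; adjusted p = 0.0361), and for hells, a chromatin remodeller needed for DNA methylation, 0.468 to 1.8 CPM and 0.589 to 8.02 CPM (−2.23 ± 0.44, SE; adjusted p = 0.0359). The gene uhrf1, which brings the maintenance methyltransferase to new DNA and which also belongs to the cell cycle list, had −1.57 ± 0.33 (SE; adjusted p = 0.0404), and the de novo methyltransferase gene dnmt3ba −1.89 ± 0.41 (SE; adjusted p = 0.0441). The other members called were hmga1b (−0.83), znf367 (−1.86), wdr76 (−1.78) and chtf8 (−1.82). Levels of znf367, a zinc finger factor, were 2.42 to 6.69 CPM in older and 3.87 to 25 CPM in younger libraries.

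The DNA damage sensor gene ddb2 had 1.93 to 12.6 CPM (median 3.86) in older and 6.0 to 22.4 CPM (median 11.8) in younger libraries (log2 fold change −1.39 ± 0.30, SE; adjusted p = 0.0449), with the older NTG library the highest of its group. The base excision repair gene apex1, chosen after its values were seen, had 9.53 to 11.7 CPM and 13.6 to 24.2 CPM, with no overlap (−0.82 ± 0.16, SE; adjusted p = 0.0348).

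Blood and vessel genes included tfr1a (chromosome 2, 4844080 to 4874960), the transferrin receptor through which red cell precursors take up iron and which had the smallest p of the called genes with an established symbol. It had 31.0 to 78.7 CPM (median 60.3) in older and 69.8 to 187 CPM (median 79.5) in younger libraries, a log2 fold change of −1.15 ± 0.16 (SE; adjusted p = 0.0115). The ranges overlapped, but within every genotype the older libraries were lower on average, by −1.44 (TMEM43-P111L), −1.28 (TMEM43-S358L), −0.56 (TMEM43-WT) and −1.33 (NTG) on the log2 scale. It was the 1 gene called among 36 tested erythrocyte and thrombocyte markers, against 0.555% of all tested genes called lower. Of the 36, 28 had a fold change below 0, against 49.6% of all tested genes. The alpha globin hbaa1 had a log2 fold change of −0.85 ± 0.41 (SE; adjusted p = 0.399), and the summed level of the list ran from 2432 to 4631 CPM in older and from 2422 to 12170 CPM in younger libraries. The part of blood cells in the values of tfr1a and of the dividing-cell genes was not tested.

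Of 73 tested endothelial and endocardial genes 2 were called lower and 0 higher, against 0.555% and 0.472% of all tested genes. Both encode water channels. Most of the list leaned the other way, with a fold change above 0 for 44 of the 73 and a median log2 fold change of 0.135. At an unadjusted p under 0.05, 13 were higher and 4 lower, against 6.84% and 6.81% of all tested genes. The gene aqp8a.1 (chromosome 12, 20366109 to 20373058) was the most abundant called gene, with 1257 to 3456 CPM (median 1936) in older and 3733 to 7038 CPM (median 5173) in younger libraries, no overlap and a log2 fold change of −1.14 ± 0.22 (SE; adjusted p = 0.0348). Levels of aqp1a.1 were 14.1 to 29.3 CPM in older and 26.1 to 98.0 CPM in younger libraries (−1.09 ± 0.23, SE; adjusted p = 0.0422). Defining endothelial markers did not pass the test, with kdrl at medians of 215 CPM in older and 192 CPM in younger libraries and cdh5 at 12.6 and 18.5 CPM. The lipid transporter gene mfsd2aa, whose product carries lysophosphatidylcholine across endothelium, was called lower (−1.5 ± 0.29, SE; adjusted p = 0.0324).

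Among cardiomyocyte genes, 1 of 81 tested sarcomere and Z-disc genes was called higher and 1 lower, against 0.472% and 0.555% of all tested genes. At an unadjusted p under 0.05, 5 of the 81 were higher and 13 lower, against 6.84% and 6.81% of all tested genes. Both called genes encode ubiquitin ligases of the MuRF family, which turn over sarcomere proteins. The gene trim55a, for MuRF2, had 41.4 to 66.3 CPM (median 48.9) in older and 23.2 to 37.7 CPM (median 25.7) in younger libraries (log2 fold change 0.76 ± 0.16, SE; adjusted p = 0.0396). The gene trim63a, for MuRF1, had 137 to 284 CPM (median 257) in older and 323 to 480 CPM (median 359) in younger libraries (−0.76 ± 0.17, SE; adjusted p = 0.0487). Neither gene's groups overlapped, and the directions were opposite. The heart-specific gene lrrc10, for a leucine-rich repeat protein of the Z-disc and chosen after its values were seen, had 49.2 to 154 CPM in older and 81.5 to 169 CPM in younger libraries (−0.87 ± 0.19, SE; adjusted p = 0.0422).

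The natriuretic peptide genes nppa and nppb, known to rise in stressed heart muscle, did not pass the test. For nppa, levels were 1046 to 1719 CPM (median 1483) in older and 1094 to 1599 CPM (median 1389) in younger libraries (log2 fold change 0.15 ± 0.16, SE; adjusted p = 0.754). For nppb they were 232 to 718 CPM (median 310) and 85.4 to 502 CPM (median 409), with a log2 fold change of 0.02 ± 0.41 (SE; adjusted p = 0.99). The gene zgc:195023, which RefSeq now names nppal and which lies beside nppa and nppb on chromosome 8, was called higher, at 0.139 to 6.04 CPM (median 1.19) in older and 0 to 1.31 CPM (median 0.120) in younger libraries. Its fold change (log2 3.80 ± 0.70, SE; adjusted p = 0.0264) rests on few reads, and only the older libraries TMEM43-P111L replicate 3 (6.04 CPM) and TMEM43-S358L replicate 4 (5.11 CPM) exceeded 5 CPM. Among the 68 tested genes of this list of stress and growth signals, 1 was called higher and 1 lower, against 0.472% and 0.555% of all tested genes. The lower was rcan1a, a feedback inhibitor of calcineurin, with 84.5 to 180 CPM (median 140) in older and 83.1 to 346 CPM (median 253) in younger libraries (−1.05 ± 0.22, SE; adjusted p = 0.0422).

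Of 54 tested calcium handling and ion channel genes 1 was called, lower, against 0.555% of all tested genes called lower. The called gene was kcnj2a, a channel of the inward rectifier potassium current, with 1.05 to 2.18 CPM in older and 2.51 to 6.28 CPM in younger libraries, without overlap (log2 fold change −1.21 ± 0.26, SE; adjusted p = 0.0404). The calcium sensor gene ncaldb, for a neurocalcin, had 1.66 to 7.58 CPM in older and 9.42 to 16.6 CPM in younger libraries (−1.54 ± 0.31, SE; adjusted p = 0.0387). Among 91 heat shock and endoplasmic reticulum chaperone genes 1 was called, lower, against the same 0.555%. It was hsf2, a heat shock transcription factor, with 2.58 to 13.4 CPM (median 3.70) in older and 6.85 to 16.6 CPM (median 13.6) in younger libraries (−1.33 ± 0.27, SE; adjusted p = 0.0361). The inducible chaperone gene hsp90aa1.1, named after its values were seen, ranged from 88.4 to 245 CPM in older and from 84.6 to 1230 CPM in younger libraries and did not pass (adjusted p = 0.246). Lists of sterol synthesis (42 genes), autophagy and lysosome (106), collagen processing (35), lymphocytes (19), fast skeletal muscle (27), atrium and outflow tract (21), yolk and liver (11) and myelin and neurons (9) held no call. The epicardium, fibroblast and mural list had 1 call, lower, among 52 tested genes, against 0.555% of all tested genes called lower. This call was postnb.

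A further pair of called genes was chosen after their values were seen. The basal keratin gene krt5 had the lowest fold change of all called genes (log2 −3.58 ± 0.73, SE; adjusted p = 0.0422). Its levels were 0.126 to 0.921 CPM (median 0.594) in older and 0.367 to 23.0 CPM (median 2.12) in younger libraries. Only the younger libraries NTG replicate 2 (19.5 CPM) and TMEM43-WT replicate 1 (23.0 CPM) exceeded 5 CPM. The Wnt ligand gene wnt11r had 13.3 to 29.4 CPM and 27.6 to 41.3 CPM (−0.88 ± 0.18, SE; adjusted p = 0.0361).

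The last question was whether the age difference was the same in the 4 genotypes. Of the 161 called genes 159 had differences of the same sign in all 4 genotypes, while 19.8% of all tested genes did. Since the calls were made on these libraries, this count only describes them. Taken alone in a model with an interaction, the age difference passed for 3 genes in TMEM43-P111L, 0 in TMEM43-S358L, 0 in TMEM43-WT and 0 in NTG, with 1616, 846, 1972 and 1158 genes at an unadjusted p under 0.05, and each genotype held only 1 library in at least one of the ages.

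**Figure D5:**
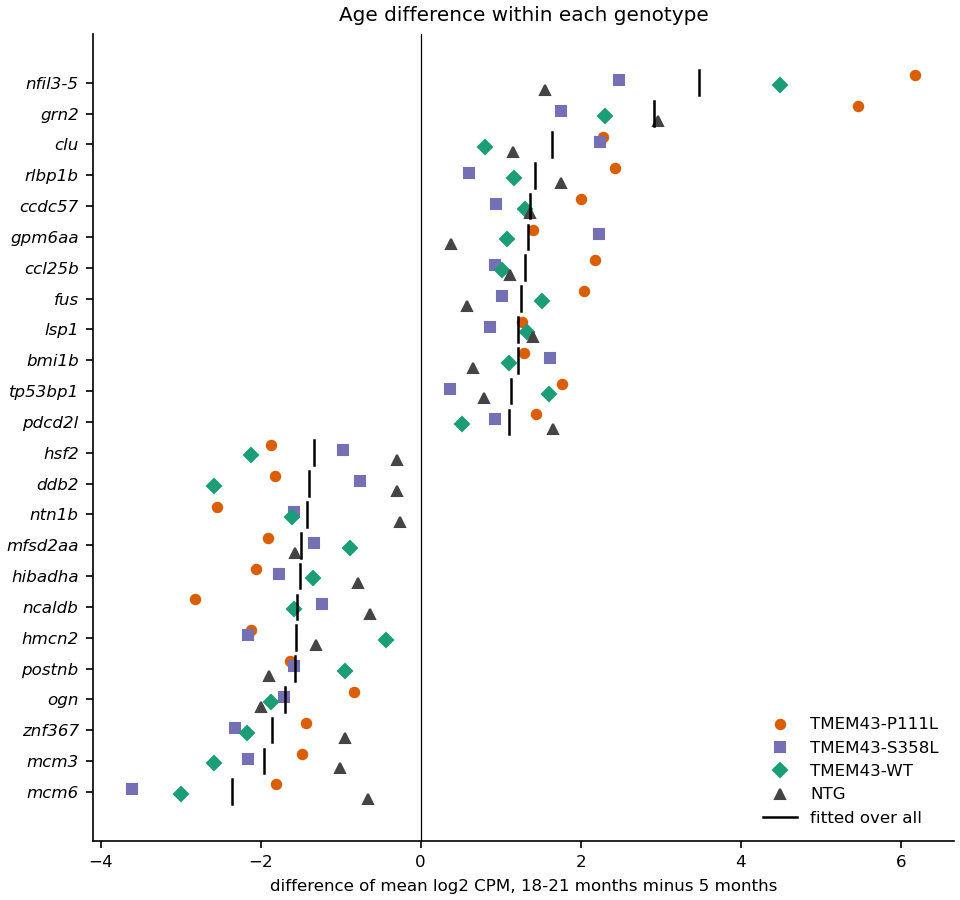
Difference of mean log2 CPM, 18-21 months minus 5 months, within each of the 4 genotypes for the 12 highest and 12 lowest named genes, with a bar at the fold change fitted over all libraries. Each of the 24 genes has the same sign in all 4 genotypes, which the choice of genes required.

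The test of a different age effect between genotypes called 1 of 15672 genes (0.00638%), with 1127 at an unadjusted p under 0.05. This gene, si:dkey-19a16.7 (chromosome 22, 6487555 to 6499562), had an adjusted p of 0.0189 and reads that were split with other features. In TMEM43-P111L it had 0.487 and 0.653 CPM in the older and 16.3 CPM in the younger libraries. In the other genotypes ages were close, with 36.3 CPM in the older and 22.9, 30.9 and 27.5 CPM in the younger TMEM43-S358L libraries, 19.7, 11.3 and 14.1 CPM in the older and 11.4 CPM in the younger TMEM43-WT libraries, and 8.96 CPM in the older and 14.0 and 9.77 CPM in the younger NTG libraries. The difference thus rested on 1 younger and 2 older TMEM43-P111L libraries. A fit without the younger one was not run, since its genotype would then hold a single age. The call was lost with limma-voom (adjusted p = 0.326), when either older TMEM43-P111L library was left out (0.512 and 0.457), when TMEM43-S358L replicate 2 (0.0602) or replicate 3 (0.0535) was left out and without the older TMEM43-WT replicate 6 (0.0711).

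The next smallest interaction p-values did not pass in edgeR's test. They belonged to mhc1uka, a class I histocompatibility gene, zgc:174862, lnx1, a ubiquitin ligase gene, aldh1a2, for a retinoic acid synthesis enzyme of the epicardium and endocardium, and paqr7b, for a membrane progestin receptor. Each of these genes passed with DESeq2's likelihood ratio test. With no filter on low counts mhc1uka and zgc:174862 passed, and zgc:174862 also did without TMEM43-WT replicate 4. The mhc1uka level was 41.0 to 70.0 CPM in the older and 3.27 to 33.8 CPM in the younger libraries, with no overlap, and the single younger TMEM43-P111L library was the lowest at 3.27 CPM. For zgc:174862 both younger NTG libraries were at 0, against 3.18 CPM in the older NTG library. For aldh1a2 the differences were −0.70 in TMEM43-P111L, −0.47 in TMEM43-S358L, −1.39 in TMEM43-WT and 0.81 in NTG (interaction adjusted p = 0.694).

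The endogenous tmem43 gene had 10.9 to 18.7 CPM (median 14.4) in older and 5.95 to 17.3 CPM (median 11.6) in younger libraries and did not pass the test (log2 fold change 0.35 ± 0.22, SE; adjusted p = 0.535). Its model in the deposited table is a short one on an unplaced scaffold, and the human transgene was not among the features counted.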

How the data were processed

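The deposited table held expected counts per gene, which the authors made from single-end reads of polyadenylated RNA (TruSeq Stranded mRNA) with Cutadapt (2.5), STAR (2.7.2b) and featureCounts (1.6.4) on GRCz11, per the submitters' processing notes. Reads shared between genes were split, so 13405 of 39289 features, which carry 77.6% of reads, have fractional values. How strand was handled was not given in the sources used here, so overlapping genes and near-identical copies are uncertain.

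Counts were rounded, filtered with filterByExpr by age group (15672 genes left), scaled by TMM and fitted with genotype and age in edgeR (4.0.16, R 4.3.3; glmQLFit, robust). Groups and ages came from the sample titles, with 7 libraries each. Nothing states that libraries came from separate families or days, so p-values measure the spread between libraries. Per-library CPM used TMM, and differences within genotypes used a prior count of 2. Alternatives included limma-voom (3.58.1) and DESeq2 (1.42.0), other filters, scalings and covariates, and each library left out. The scripts were tested on simulated data.

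The comparison and the 28 gene lists (with 5 lists added after the values were seen, 2215 entries, of which 2035 matched by symbol, 114 by gene ID through RefSeq's names for GRCz12tu and 66 not) were chosen with earlier results of these data known. Named genes were the 12 highest and 12 lowest fold changes among called genes with at least 5 CPM, the same sign in all 4 genotypes and a symbol that is not provisional, the 6 smallest p-values under that rule, up to 6 called members of each described list, the 6 smallest interaction p-values, and tmem43, nppa and nppb. Others are marked as chosen after their values were seen. No sequence is shown. A withheld item is not reported here.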

Additional observations from a re-analysis of the deposited data

Results flagged for a closer look

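For each named gene and 3 library measures, the gap between the most extreme library and its nearest neighbour, as a share of the range of the 7 libraries of an age group, was set against Dixon's critical value for 7 values. Of 222 sets of values 13 exceeded it, and chance alone exceeds it in about 1 set in 20 where all 7 values come from a single population. Each age group mixed 4 genotypes, so a genotype difference can also set a library apart. NTG replicate 4 and TMEM43-S358L replicate 4 were the only older libraries of their genotypes. TMEM43-P111L replicate 2 and TMEM43-WT replicate 1 were the only younger ones of theirs.

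Among libraries of 18 to 21 months, TMEM43-P111L replicate 4 stood apart with the most reads (0.598). NTG replicate 4 had the lowest nfil3-5 (0.753) and the highest nppb (0.613). TMEM43-S358L replicate 4 had the lowest hbaa1 (0.608) and kcnj2a (0.584), TMEM43-WT replicate 4 the lowest cdkn2a/b (0.590) and bmi1b (0.629), and TMEM43-P111L replicate 3 the highest ogn (0.576).

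Among libraries of 5 months, TMEM43-P111L replicate 2 had the lowest mhc1uka (0.840) and the highest wnt11r (0.639) and tfr1a (0.674). NTG replicate 3 had the lowest pdcd2l (0.618) and TMEM43-WT replicate 1 the highest auh (0.681). In mhc1uka, wnt11r, tfr1a, pdcd2l and auh the outlying library lay farther from the other age group than its neighbours did. The fit had genotype as a covariate, so this position alone does not show what that library did to the fold change.

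The age difference of si:dkey-19a16.7 differed between genotypes (edgeR's quasi-likelihood test of the interaction, adjusted p = 0.0189), with a difference of −4.65 on the log2 scale in TMEM43-P111L and of −0.38 to 0.43 in the other genotypes.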

How the results depend on the processing

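All 161 genes kept their direction in every alternative that tested them, which only describes genes called on these same libraries. DESeq2 called 566 genes (255 higher, 311 lower; 157 shared), genes with whole counts only gave 46 (23 higher, 23 lower; 46 of the 78 called genes tested), and leaving out the pair of younger libraries with the lowest scaling factors, an alternative added after seeing the data, gave 6 (4 higher, 2 lower; 5 shared). With age in months, 52 genes were called lower. With size factors (RLE) 40.8% of calls were higher, against 46% with TMM. Without 1 replicate at a time, the calls ranged from 1 to 317, those higher from 1 to 163 and those lower from 0 to 154, while 1723 to 2539 genes had an unadjusted p under 0.05. Only leaving out TMEM43-S358L replicate 1 kept the count within 1.5 times of 161. The interaction test called 0 genes with limma-voom, 84 with DESeq2's likelihood ratio test and 3 with no filter on low counts. It called 0 to 4 without 1 replicate, where each genotype still held both ages. The only library of a genotype at one age was never left out of this test. In the age test, fits without NTG replicate 4, TMEM43-S358L replicate 4, TMEM43-P111L replicate 2 or TMEM43-WT replicate 1 took that library's whole genotype out of the estimate. The cause of these changes was not tested. Of 2804 repeats of the named genes' age tests, 1777 stayed on their side of the threshold, 959 lost the call, 68 gained it and none turned round. No paired analysis was possible because the labels give no pairs of older and younger libraries. The age groups share only replicate number 3, in different genotypes, and what these numbers mark is not stated. With 7 libraries a group, unequal genotypes and most calls near the threshold, which genes pass depends on the libraries included, and low genes (under about 5 CPM) rest on few reads.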
